A study of Macaca fascicularis with 86 samples.

Results

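Sections 1 and 2 of a crab-eating macaque embryo at embryonic day 20 (E20) were compared with sections 3, 4 and 5 of the same embryo. The members were chosen by the section number in each sample's title, which gave 16 laser-captured regions from sections 1-2 (9 from section 1 and 7 from section 2). The other side held 12 regions from sections 3-5 (3, 6 and 3 in that order). These 28 regions belong to a series of 86, which also holds 8 regions from E20 sections 6-7 and 15 and 35 regions from 2 embryos at day 18 (E18). Polyadenylated RNA was sequenced by Geo-seq, which profiles small groups of cells cut from cryosections by laser, here 5 to 50 cells per region. No group carried a treatment or a genetic change, the labels give no strain, and the tissue is given only as embryo. The end of the embryo at which the section numbers start is not stated, nor how the regions were chosen.

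The yolk sac has an inner endoderm facing the yolk cavity, an outer mesenchyme, and blood islands with endothelium and primitive red cells between them. Its endoderm does the work of a liver before the liver forms: it secretes alpha-fetoprotein, apolipoproteins, fibrinogen and protease inhibitors and takes up nutrients by endocytosis. The mesenchyme lays down collagens and expresses HAND1, while hedgehog ligands from the endoderm and BMP ligands from the mesenchyme are known signals to the blood-forming layer in mouse. Each region of a few cells can hold any mixture of these layers, and fewer cells of a type cannot be told apart from less RNA per cell.

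Markers of the yolk sac layers were present in sections 1 to 5. The epiblast, streak and amnion markers named in this paragraph were each listed at 0 in most of the 28 regions. AFP was measured in all 28 regions, and LUM, a collagen-binding proteoglycan, and COL3A1, a fibrillar collagen, were too. The primitive streak factor TBXT was listed at 0 in all 28 regions, and the pluripotency factor SOX2 did not exceed 0.211 TPM (reads per gene, corrected for gene length and scaled to a common total per region) in any of them. The epiblast markers SOX2, NANOG, L1TD1 and DPPA5 summed to a median of 0.0696 and a highest value of 18.97 TPM in sections 1-2, against 0.837 and 12.3 TPM in sections 3-5. The highest was section 2 sector 5, with 10.7 TPM of L1TD1 and 8.25 TPM of DPPA5, and NANOG reached 5.25 TPM in section 5 sector 2. Other genes of the wider epiblast list were more widespread. DNMT3B, TDGF1 and USP44 reached 1 TPM in 12, 14 and 10 of 16 regions of sections 1-2 and in 11, 8 and 11 of 12 of sections 3-5. The streak markers TBXT, MIXL1 and EOMES had a median sum of 0 in both groups and reached 23.7 TPM in sections 1-2, all of it EOMES in section 2 sector 4, and 5.01 TPM in sections 3-5. The amnion markers GABRP, VTCN1 and TFAP2A summed to at most 2.27 TPM in a region of sections 1-2 and 3.47 TPM in a region of sections 3-5. EPCAM, an epithelial adhesion molecule, lay between 273 and 916 TPM in every region, including those richest in mesenchyme markers.

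Regions of sections 1-2 had fewer genes at a TPM of at least 1, 8196 ± 961 (SD, n = 16 regions) against 9196 ± 750 in sections 3-5 (SD, n = 12 regions), a difference of -1001 genes (two-sided permutation test over regions, 100000 resamples, p = 0.00628). Permuted regions were taken as independent of their section, here and for the share below, so these p-values do not measure the spread between sections. The section means were 8431 and 7893 genes in sections 1 and 2, against 9817, 8914 and 9142 in sections 3, 4 and 5. The share of summed TPM from mitochondrially encoded genes was 17.9% ± 2.97 in sections 1-2 and 17.9% ± 3.26 in sections 3-5 (two-sided permutation test, p = 0.948). TPM values carry no counts, and how deeply a region was sequenced is unknown. ACTB was at 0 in 0 of the 28 regions and HPRT1, another gene used by every cell, in 4, so a value of 0 is given below only as listed at 0.

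Sections 1-2 and sections 3-5 differed in few genes once single regions were weighed: 6 of 10962 genes tested passed an adjusted p of 0.05 (0.0547%), all 6 lower in sections 1-2 and 0 (0.00%) higher. The genes were MCCD1, AGFG2, SUSD3, CLDN3, PROC and ACP5. The test was limma on log2(TPM + 1) with a correlation within sections and Benjamini-Hochberg adjustment over all genes. At an unadjusted p of 0.05, 1277 genes were lower (11.6%) and 152 higher (1.39%) in sections 1-2. In no gene were all regions of sections 1-2 on one side of all regions of sections 3-5 (0 genes, 0.00%). The means of sections 1 and 2 both lay below all 3 means of sections 3-5 for 2769 genes (25.3%) and above them for 493 (4.50%). The median gene differed by -0.22 on the log2 scale, and the 95% interval of a difference extended 0.82 log2 units to each side of it in the median gene.

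The 6 calls rest on how regions of a section are weighed. The estimated correlation within sections was slightly negative (-0.0359), which narrows the error of a difference between groups of sections. With regions taken as independent, with section means as units and with detected genes per region as a covariate, limma called 0 genes, while 1022, 1267 and 759 passed an unadjusted p of 0.05. Quantile normalization also left 0 calls and moved the median gene to 0.02, and its 1253 genes at an unadjusted p of 0.05 were 637 higher and 616 lower. All regions come from 1 embryo, so every p-value speaks of the spread between regions of that embryo and not of embryos. With 2 sections against 3, an exact permutation test of section means cannot give a two-sided p below 0.2.

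Of a gene's total sum of squares, a median of 2.59% was between sections 1-2 and sections 3-5, 7.46% between sections of the same group and 87.6% between regions of a section. The degrees of freedom split as 3.70%, 11.1% and 85.2%, which are mean shares for a gene with no difference between groups or sections. Medians over genes are another measure, so the shares above do not show that the typical gene lacked a difference.

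MCCD1, a gene named for a coiled-coil domain and a mitochondrial targeting signal, had the largest difference of the 6. It was listed at 0 in 13 of 16 regions of sections 1-2, the other 3 being section 1 sectors 2, 7 and 8 at 19.1, 9.53 and 22.2 TPM. In sections 3-5 it was above 0 in all 12 regions, at 0.891 to 40.7 TPM with a median of 11.7. The log2 difference was -2.75 (95% interval -3.80 to -1.70, limma adjusted p = 0.036), and the 3 regions of section 1 overlapped the range of sections 3-5.

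AGFG2 encodes a protein with an ArfGAP domain and phenylalanine-glycine repeats. Its lowest, median and highest values were 0, 0.287 and 21.6 TPM in sections 1-2, against 0.917, 9.38 and 35.2 TPM in sections 3-5. The difference was -2.53 (-3.41 to -1.65, limma adjusted p = 0.016). Only section 1 sectors 1, 2 and 7 and section 2 sectors 4 and 5 reached 1 TPM in sections 1-2, against 11 of 12 regions in sections 3-5.

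SUSD3, a membrane protein with a sushi domain, had a lowest, median and highest value of 0, 0.798 and 15.2 TPM in sections 1-2 and 3.66, 11.3 and 41.0 TPM in sections 3-5 (difference -2.36, -3.32 to -1.40, limma adjusted p = 0.040). CLDN3 encodes claudin 3, a tight junction protein of epithelia. It was listed at 0 in 10 of 16 regions of sections 1-2 and in 0 of 12 regions of sections 3-5, where it lay between 2.29 and 23.9 TPM. The highest CLDN3 value of all 28 regions was nevertheless in section 1, 33.99 TPM in sector 2. Its difference was -2.35 (-3.32 to -1.38, limma adjusted p = 0.040).

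PROC encodes protein C, an anticoagulant protease made by the liver. It was listed at 0 in 13 regions of sections 1-2, with a highest value of 6.53 TPM, and had a median of 3.50 and a highest value of 8.11 TPM in sections 3-5, where 2 regions were at 0. The difference was -1.62 (-2.25 to -0.98, limma adjusted p = 0.040). ACP5, the tartrate-resistant acid phosphatase of osteoclasts and macrophages, falls outside the naming rule because of its low mean level and was added after its values were seen. It reached at most 2.57 TPM in sections 1-2, with 13 regions at 0, against a median of 4.06 and a maximum of 15.3 TPM in sections 3-5, where 3 regions were at 0 (difference -1.87, -2.64 to -1.10, limma adjusted p = 0.040). A gene was tested where 6 or more of the 28 regions reached 1 TPM. MCCD1, AGFG2, CLDN3, PROC and ACP5 reached it in 3, 5, 4, 1 and 3 regions of sections 1-2 and in 11, 11, 12, 10 and 9 of sections 3-5, so these 5 passed the filter on sections 3-5 alone. SUSD3 reached it in 8 regions of sections 1-2 and 12 of sections 3-5.

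**Figure D1:**
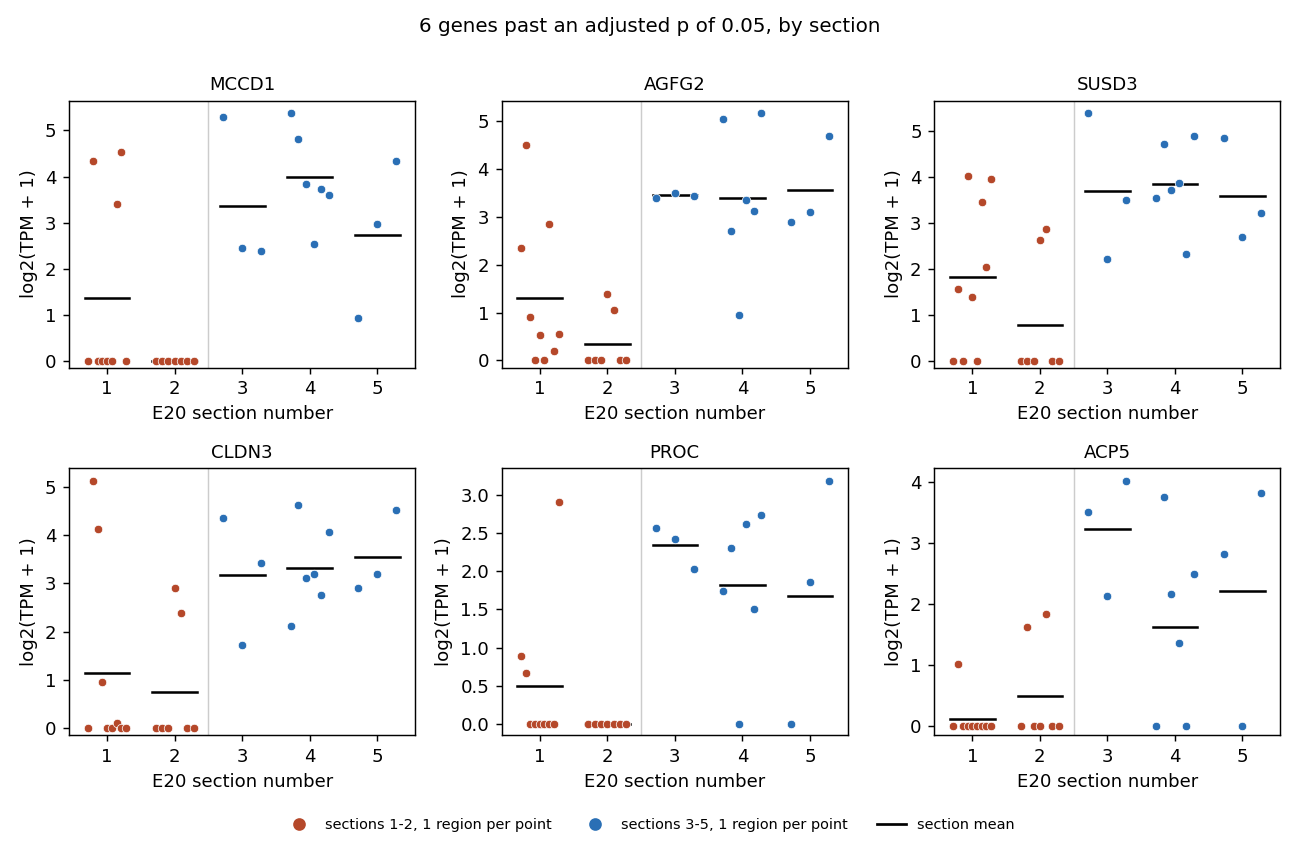
Values of the 6 genes past an adjusted p of 0.05, in log2(TPM + 1) against E20 section number; points are regions, red for sections 1-2 and blue for sections 3-5, and bars are section means. Both red section means lie below all 3 blue ones in each panel, while single red regions reach into the blue range.

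For SUSD3 and CLDN3 the call was lost without section 5 (adjusted p of 0.123 and 0.135), and for MCCD1, AGFG2, PROC, SUSD3 and CLDN3 without section 4 (0.33, 0.056, 0.109, 0.276 and 0.245). ACP5 kept its call without section 4 and lost it without section 5 (0.088). Leaving out section 3 left 0 calls (1013 genes at an unadjusted p of 0.05). Leaving out section 2 sector 3, the region with the fewest genes detected (6194), left 1 call, AGFG2 (adjusted p = 0.035). Without section 1 there were 2033 calls and without section 2 there were 295, at correlations of -0.109 and -0.0768. With regions independent, those fits gave 58 and 0.

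The 6 genes differed in how they stood elsewhere in the series, given here as values without a test. MCCD1 was listed at 0 in all 8 regions of E20 sections 6-7 and reached at most 0.669 and 5.76 TPM in E18 embryos 1 and 2. PROC reached at most 0.0867 TPM in sections 6-7 and 0.962 and 3.47 TPM in the E18 embryos. CLDN3, in contrast, had medians of 9.07 TPM in sections 6-7 and 10.1 and 6.02 TPM in the E18 embryos, with single regions up to 102, 145 and 64.9 TPM. ACP5 ranged over 5.00 to 12.9 TPM in sections 6-7, above the highest region of sections 1-2 throughout.

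Secreted products of the yolk sac endoderm mostly had negative differences, but only PROC among them passed the adjusted threshold. AFP, the main carrier protein of the fetal circulation, had 15.2 TPM at its lowest, 5420 TPM at its median and 19243 TPM at its highest in sections 1-2, against 986, 11723 and 33654 TPM in sections 3-5. A low tail set these apart: 6 regions of sections 1-2 lay below the lowest region of sections 3-5. They were section 2 sectors 7, 5, 1 and 2 at 15.2, 89.9, 453 and 562 TPM and section 1 sectors 6 and 4 at 119 and 973 TPM, while the other 10 regions lay inside the range of sections 3-5. The AFP difference was -2.15 (95% interval -3.71 to -0.58, limma adjusted p = 0.233). It was -1.06 without section 2 and -3.57 without section 1, the second with an adjusted p of 0.000282 under a correlation of -0.109. With regions independent that call was lost (difference -3.66, limma adjusted p = 0.070).

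**Figure D2:**
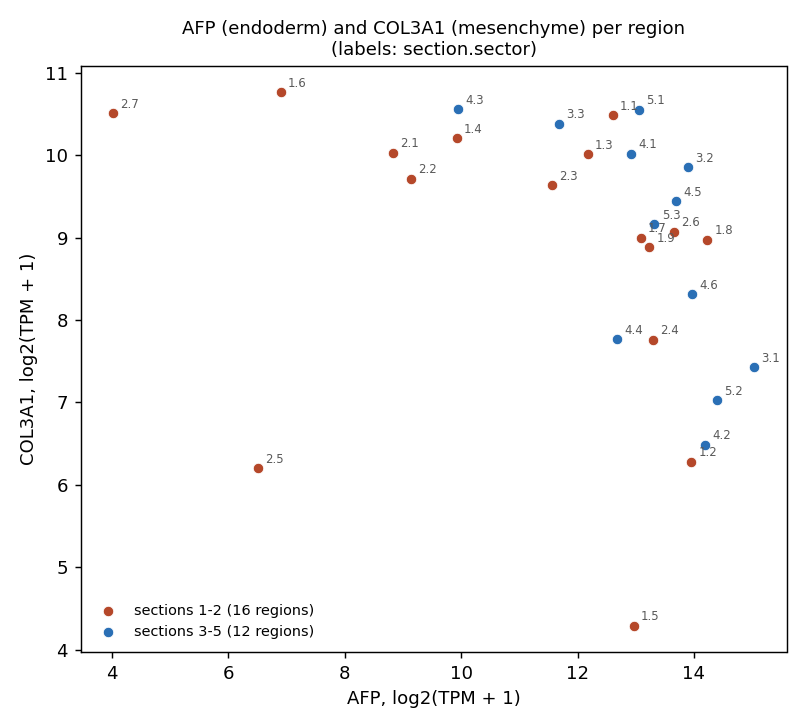
AFP, an endoderm product, against COL3A1, a mesenchyme collagen, both in log2(TPM + 1), for 28 regions labelled by section and sector; red points are sections 1-2 and blue points sections 3-5. The 6 regions with the least AFP are all red, and section 2 sector 5 is low in both genes.

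SERPINA1, the inhibitor of neutrophil elastase, had a median of 906 TPM in sections 1-2 (2.69 to 3109) and 1810 TPM in sections 3-5 (488 to 4153), a difference of -2.02 (limma adjusted p = 0.202). FGB, the fibrinogen beta chain, had medians of 9119 and 17507 TPM in sections 1-2 and sections 3-5 (difference -1.54, adjusted p = 0.331). APOA1, the main protein of high-density lipoprotein, had medians of 6602 and 11872 TPM (difference -1.76, adjusted p = 0.260). APOB, which carries lipid in very-low-density particles, had medians of 499 and 684 TPM (difference -1.47, adjusted p = 0.388). For TTR, the thyroxine and retinol carrier, the median was higher in sections 1-2 (1269 TPM against 1147 TPM in sections 3-5) although the mean log2 difference was -0.90 (adjusted p = 0.520). The low regions of AFP were low in these genes too: section 2 sector 7 had 2.69 TPM of SERPINA1, 11.9 TPM of APOA1 and 27.5 TPM of FGB. Section 2 sector 5 was uneven, with 22.7 TPM of SERPINA1 but 3157 TPM of APOA1 and 2225 TPM of FGB.

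By role, the coagulation factors and protease inhibitors had the lowest median difference, -1.85 over the 25 of 30 genes that passed the filter on low values, against -0.22 over all genes tested. Of these 25, 1 passed the adjusted threshold (PROC), 19 passed an unadjusted p of 0.05 on the lower side and 0 on the higher side, where 11.6% and 1.39% of all genes tested did. The plasma carriers had a median of -1.69 (7 lower and 0 higher at an unadjusted p of 0.05 among 9 of 12 tested) and the apolipoproteins and lipid transport genes -1.22 (7 lower and 0 higher among 14 of 17). Liver-type metabolic enzymes had a median of -1.22 (10 lower and 0 higher among 15 of 20), and complement genes -0.63 (3 lower and 0 higher among 7 of 20). With detected genes per region as a covariate, a fit in which 386 genes were lower and 373 higher at an unadjusted p of 0.05, the lower counts were 17 for coagulation, 7 for carriers, 5 for apolipoproteins, 4 for enzymes and 0 for complement. None of the carriers, apolipoproteins, enzymes or complement genes passed the adjusted threshold. PROC, SERPINA7 and ITIH4 reached 1 TPM in 1, 5 and 4 regions of sections 1-2, against 10, 8 and 8 of sections 3-5. The carrier SHBG did so in 2 against 6. These genes passed the filter on sections 3-5 alone, so the coagulation and carrier medians and counts draw partly on genes admitted through that group. After quantile normalization the medians were -1.80 for coagulation, -1.61 for carriers, -1.12 for apolipoproteins and -0.98 for liver-type enzymes. The size turned on the sections used: in the same order the medians were -2.71, -2.53, -2.0 and -2.40 without section 1, and -1.10, -0.94, -0.61 and -0.80 without section 2.

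The following members fall outside the naming rule and were chosen after their values were seen. F10, the protease that activates prothrombin, had medians of 2.43 TPM in sections 1-2 and 12.7 TPM in sections 3-5 (difference -2.12, limma adjusted p = 0.091). LIPC, hepatic lipase, had medians of 0 and 17.9 TPM (difference -2.48, adjusted p = 0.091). AMBP, the precursor of alpha-1-microglobulin and bikunin, had medians of 7.59 and 63.6 TPM (difference -2.61, adjusted p = 0.101). ALB, the serum albumin that replaces AFP after birth, was far below AFP at the median, with 6.17 TPM in sections 1-2 and 48.4 TPM in sections 3-5 (difference -2.40, adjusted p = 0.122). HPX, the heme carrier hemopexin, had medians of 25.4 and 123 TPM (difference -2.64, adjusted p = 0.109). Ceruloplasmin, CP, a copper-carrying ferroxidase, had 2.48 and 3.79 TPM and a difference of 0.05, apart from the other carriers.

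Marker levels of the layers are given beside these secreted genes. The 8 yolk sac endoderm markers were AFP, APOA1, APOB, TTR, SERPINA1, FGB, HNF4A and CUBN, so most are themselves secreted products named above. The mean log2 level of the 8 yolk sac endoderm markers lay at 2.25, 9.35 and 10.46 (lowest, median, highest region) in sections 1-2 and at 7.93, 9.72 and 10.8 in sections 3-5. By section it was 8.95 and 7.46 in sections 1 and 2, against 9.74, 9.65 and 9.70 in sections 3, 4 and 5. The 8 mesenchyme markers lay at 3.68, 7.00 and 8.62 in sections 1-2 and at 4.93, 6.96 and 8.42 in sections 3-5. With the endoderm level minus the mesenchyme level as a covariate, the medians were -1.22 for coagulation, -0.89 for carriers, -0.52 for apolipoproteins and -0.74 for liver-type enzymes, and 2 genes were called. That covariate is built partly from the secreted genes it is set beside, so the fit cannot separate them from the mixture of layers. The part that the mixture plays in the single-gene values was not tested.

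**Figure D3:**
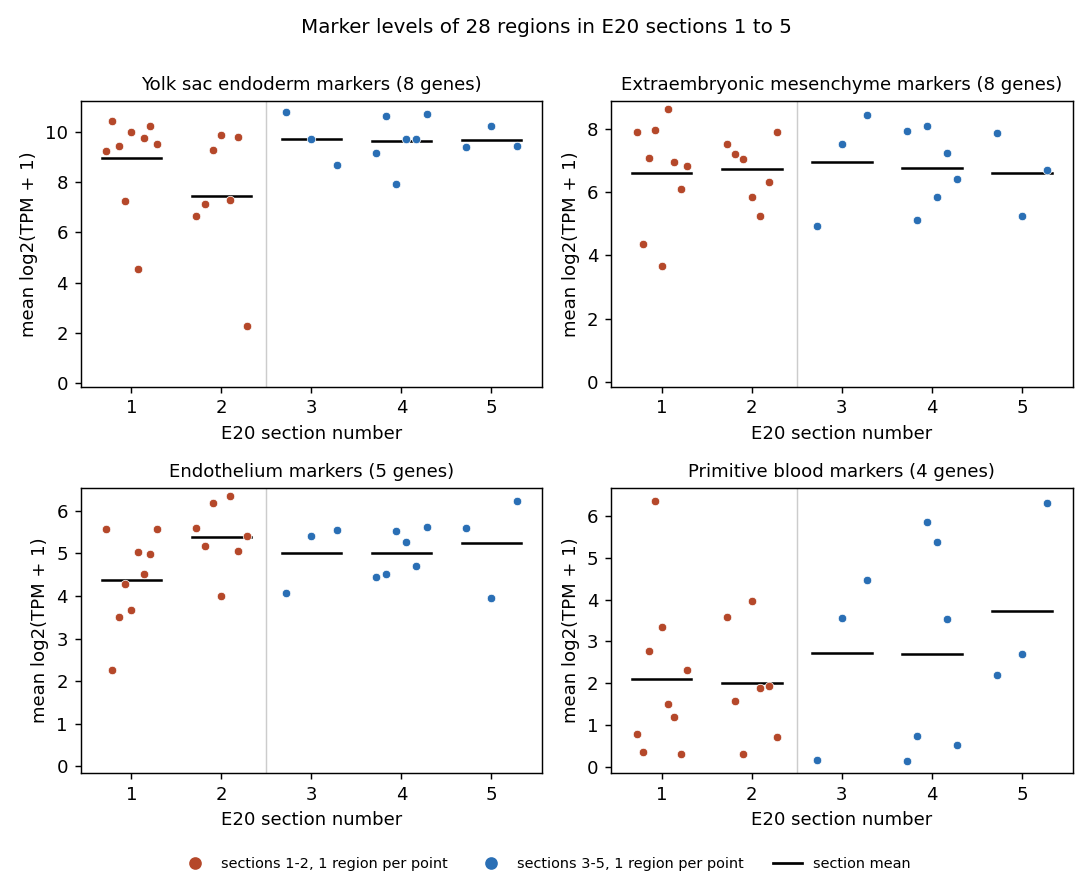
Mean log2(TPM + 1) of 4 marker lists per region against E20 section number; points are regions, red for sections 1-2 and blue for sections 3-5, and bars are section means. The endoderm markers have a low tail in sections 1 and 2 (down to 2.25) that sections 3-5 lack, while mesenchyme, endothelium and blood markers overlap widely.

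Endoderm transcription factors are given next, with no test against the secreted products. HNF4A, the nuclear receptor that drives hepatocyte genes, had medians of 9.19 TPM in sections 1-2 and 5.11 TPM in sections 3-5, with a mean log2 difference of -0.50 (95% interval -1.61 to 0.60, limma adjusted p = 0.728). Its sections 3-5 values were uneven, since section 4 sector 6 had 189 TPM and section 4 sector 3 had 56.2 TPM, and the other 10 regions reached at most 22.7 TPM. Section 2 sectors 1 and 2, low in AFP, had 24.1 and 32.9 TPM of HNF4A. FOXA2 differed by -0.31 (-1.19 to 0.58) and GATA6 by -0.38 (-1.05 to 0.30). GATA4 did not pass the filter, with a highest value of 10.2 TPM in section 1 sector 5 and 0 listed in most regions.

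Of the 11 of 15 endoderm factors that were tested, 0 passed the adjusted threshold, 3 passed an unadjusted p of 0.05 on the lower side and 0 on the higher side (background 11.6% and 1.39%), with a median of -0.60. The 3, named after their values were seen, were the bile acid receptor NR1H4 (-2.12, adjusted p = 0.202), the forkhead factor FOXA3 (-1.94, adjusted p = 0.188) and the hepatic factor ONECUT1 (-1.44, adjusted p = 0.178). FOXA3 had medians of 16.2 TPM in sections 1-2 and 54.6 TPM in sections 3-5, and NR1H4 had 4.19 and 39.5 TPM. ONECUT1 reached 1 TPM in 5 regions of sections 1-2 and 10 of sections 3-5. It therefore passed the filter on sections 3-5 alone, and the lower count above draws partly on that group.

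Uptake receptors of the endoderm were close to the median gene. CUBN, the endocytic receptor cubilin, had medians of 14.8 TPM in sections 1-2 and 14.1 TPM in sections 3-5 (difference -0.46, -1.54 to 0.62, limma adjusted p = 0.755). The 13 uptake genes had a median of -0.30, and 1 of them passed an unadjusted p of 0.05 (background 11.6% lower). It was SCARB1, the high-density lipoprotein receptor (-1.51, adjusted p = 0.186, chosen after its values were seen). Epithelial genes had a median of -0.31 over 10 tested. CLDN3 passed the adjusted threshold among them, while EPCAM differed by -0.16 (-0.46 to 0.13) and the keratin KRT19 by 0.01 (-0.54 to 0.57).

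**Figure D4:**
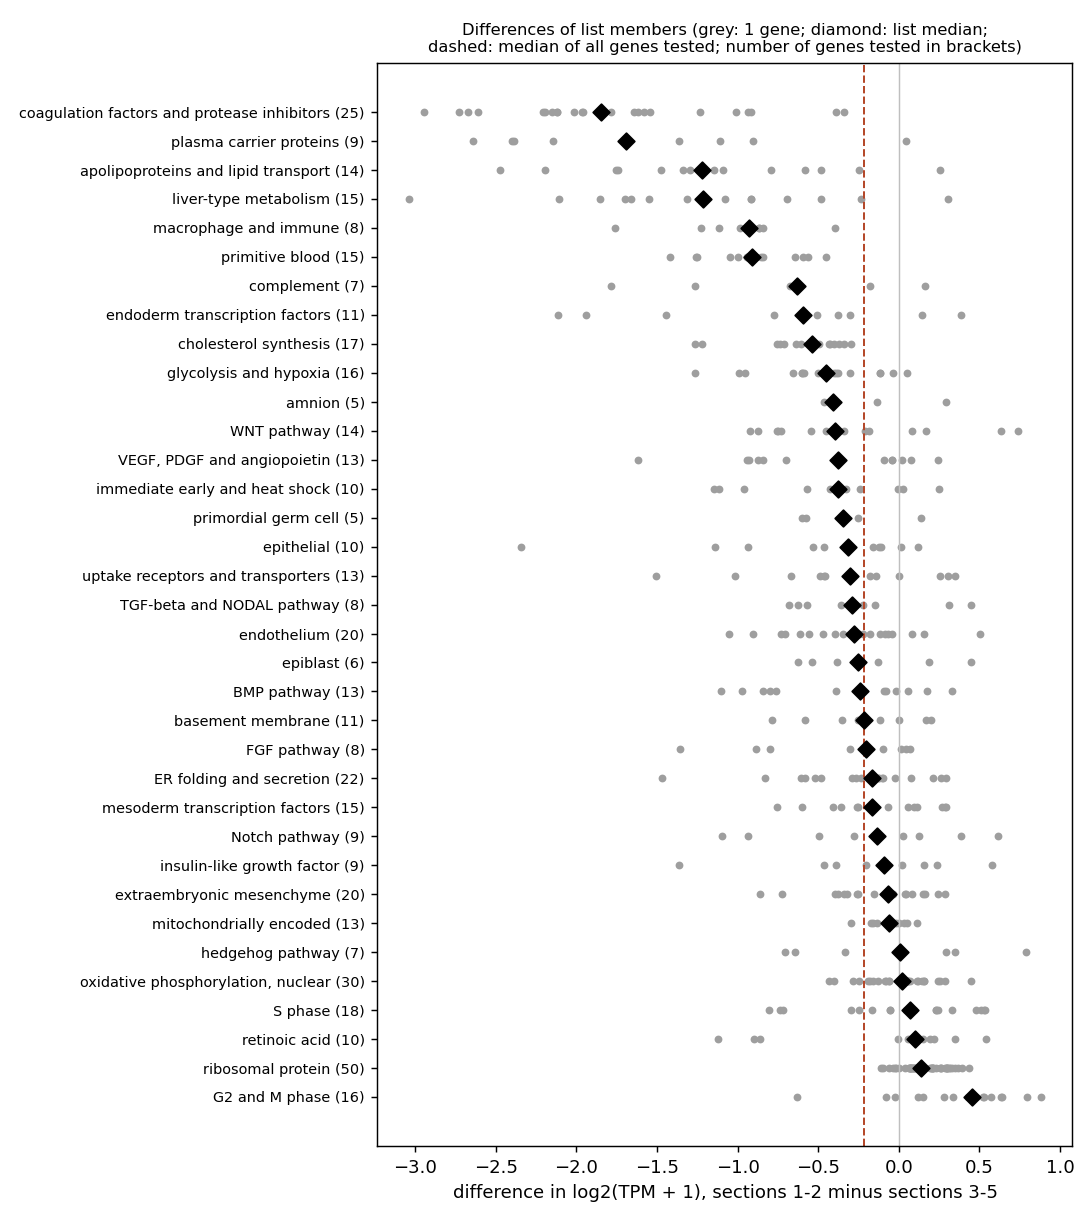
Differences in log2(TPM + 1), sections 1-2 minus sections 3-5, for tested members of the gene lists with at least 5 of them; each grey point is 1 gene, diamonds are list medians and the dashed line is the median of all genes tested (-0.22). Secreted endoderm products lie furthest to the left, at -1.85 for coagulation factors and protease inhibitors, and G2 and M phase genes furthest to the right at 0.45.

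Mesenchyme genes did not differ detectably, with intervals of about 1 log2 unit to each side. COL3A1 had a lowest, median and highest value of 18.6, 665 and 1735 TPM in sections 1-2 and 88.6, 633 and 1505 TPM in sections 3-5, a difference of -0.05 (95% interval -1.08 to 0.99, limma adjusted p = 0.978). COL1A1, another fibrillar collagen chain, differed by -0.07 (-0.97 to 0.84) and LUM by 0.08 (-0.83 to 0.99). POSTN, the matricellular protein periostin, differed by 0.16 (-1.05 to 1.37). For VIM, the mesenchymal intermediate filament, the interval was narrower, with a difference of 0.05 (-0.47 to 0.57) and medians of 867 and 811 TPM in sections 1-2 and sections 3-5. HAND1, a transcription factor of extraembryonic mesoderm, differed by 0.10 (-0.999 to 1.19). PDGFRA, a receptor for platelet-derived growth factor, differed by -0.86 (-1.52 to -0.20, limma adjusted p = 0.256). It had no more than 4.79 TPM in sections 1-2 and 5.77 TPM in sections 3-5. It reached 1 TPM in 5 and 9 regions of these groups, so it passed the filter on sections 3-5 alone. Its difference was -0.43 with detected genes as a covariate and -0.32 after quantile normalization. Over the 20 mesenchyme genes the median was -0.07, above 0 in 2 of 18 alternatives, with 2 lower and 0 higher at an unadjusted p of 0.05 (background 11.6% lower) and 0 past the adjusted threshold.

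Endothelium was likewise spread over the same range. PECAM1, an adhesion molecule of endothelial cells, had medians of 25.1 and 32.004 TPM in sections 1-2 and sections 3-5 (difference -0.18, -1.01 to 0.64), and KDR, the main VEGF receptor, 62.4 and 98.3 TPM (difference -0.56, -1.22 to 0.11, limma adjusted p = 0.474). The 20 endothelial genes had a median of -0.28, above 0 in the 2 fits without section 1, with 1 lower and 0 higher at an unadjusted p of 0.05 (background 11.6% lower). Among the angiogenic ligands, ANGPT1, which activates the receptor TEK, was the member of lowest p (-1.62, adjusted p = 0.151, chosen after its values were seen), with medians of 4.89 TPM in sections 1-2 and 13.3 TPM in sections 3-5.

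Primitive blood genes varied widely between regions of the same section. HBZ, the embryonic zeta globin, had a lowest, median and highest value of 1.06, 12.7 and 1641 TPM in sections 1-2 and 0, 210 and 3380 TPM in sections 3-5. Values above 1000 TPM were in section 1 sector 4 (1641), section 4 sectors 3 and 4 (1280 and 1486) and section 5 sector 3 (3380). The difference was -0.85 with an interval of -3.24 to 1.53 (limma adjusted p = 0.802), too wide to place it on either side. GATA1, the erythroid transcription factor, was listed at 0 in 12 of 16 regions of sections 1-2 and in 5 of 12 of sections 3-5 (difference -0.998, adjusted p = 0.445). Across the 28 regions HBZ moved with ALAS2, the erythroid heme synthesis enzyme (Pearson's r = 0.73, Spearman's rho = 0.75), a description over regions that share sections and an embryo.

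Over the 15 of 24 blood genes tested the median was -0.91, with 4 lower and 0 higher at an unadjusted p of 0.05 (background 11.6% lower). The 8 of 14 macrophage and immune genes tested had a median of -0.93, with 4 lower and 0 higher. Some members of both lists passed the filter on sections 3-5 alone, so these medians and counts draw partly on genes admitted through that group. GATA1 and NFE2 reached 1 TPM in 4 regions of sections 1-2 each, against 7 and 10 of sections 3-5, and LYZ in 3 against 7. Members of that list differed in level. C1QA, C1QB and C1QC were listed at 0 in all 28 regions, and CSF1R in all 16 of sections 1-2 and 11 of sections 3-5. MRC1, in contrast, had medians of 9.50 and 19.8 TPM in sections 1-2 and sections 3-5, and LAPTM5 2.96 and 12.4 TPM. CD14, which monocytes and other cells express, had medians of 13.4 TPM in sections 1-2 and 21.7 TPM in sections 3-5, and its highest value was in section 2 sector 3 at 127 TPM. The part that fewer detected genes in sections 1-2 play in these low-level genes was not tested beyond the fit with that covariate, in which the medians were -0.75 for both lists and 0.01 for all genes. In that fit 0 blood genes and 1 macrophage and immune gene were lower at an unadjusted p of 0.05, and after quantile normalization 0 and 2. Over all 10962 genes, 386 and 616 were lower in these fits.

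Hedgehog and BMP signalling genes showed no difference past the threshold. IHH, the hedgehog ligand of yolk sac endoderm in mouse, had medians of 4.49 TPM in sections 1-2 and 4.16 TPM in sections 3-5 and a difference of 0.0046 (95% interval -1.13 to 1.14), which took the other sign in 9 of 18 alternatives. PTCH1, the hedgehog receptor and a target of the pathway, differed by 0.29 (-0.48 to 1.07), with medians of 17.5 and 26.6 TPM. BMP4, a ligand of mesenchyme, differed by 0.33 (-0.84 to 1.51), with medians of 49.6 and 30.8 TPM. Without section 1 BMP4 stood 1.37 higher in section 2 than in sections 3-5 (limma adjusted p = 0.009 under a correlation of -0.109). That call was lost with regions independent (adjusted p = 0.260), and without section 2 the difference was -0.39. IGF2, a growth factor abundant in extraembryonic tissue, differed by -0.20 (-0.80 to 0.40), with medians of 317 and 300 TPM.

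Correlations with the layer markers across regions differed in sign between these genes. Over the 28 regions PTCH1 had a Pearson's r of 0.76 with the mesenchyme markers and -0.61 with the endoderm markers, and BMP4 0.80 and -0.58. IHH had -0.54 with the mesenchyme markers and 0.32 with the endoderm markers. These are descriptions over 28 regions of 1 embryo and carry no test, and the marker lists themselves ran against each other (r = -0.53, rho = -0.78). The hedgehog list had a median of 0.0046 over 7 of 13 genes, that of IHH itself, which took the other sign in 11 of 18 alternatives. It had 0 lower and 1 higher at an unadjusted p of 0.05 (background 1.39% higher), the pathway's transcription factor GLI1 (0.79, adjusted p = 0.297, chosen after its values were seen). The BMP list had a median of -0.24 over 13 genes, with 1 lower and 0 higher (background 11.6% lower).

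**Figure D5:**
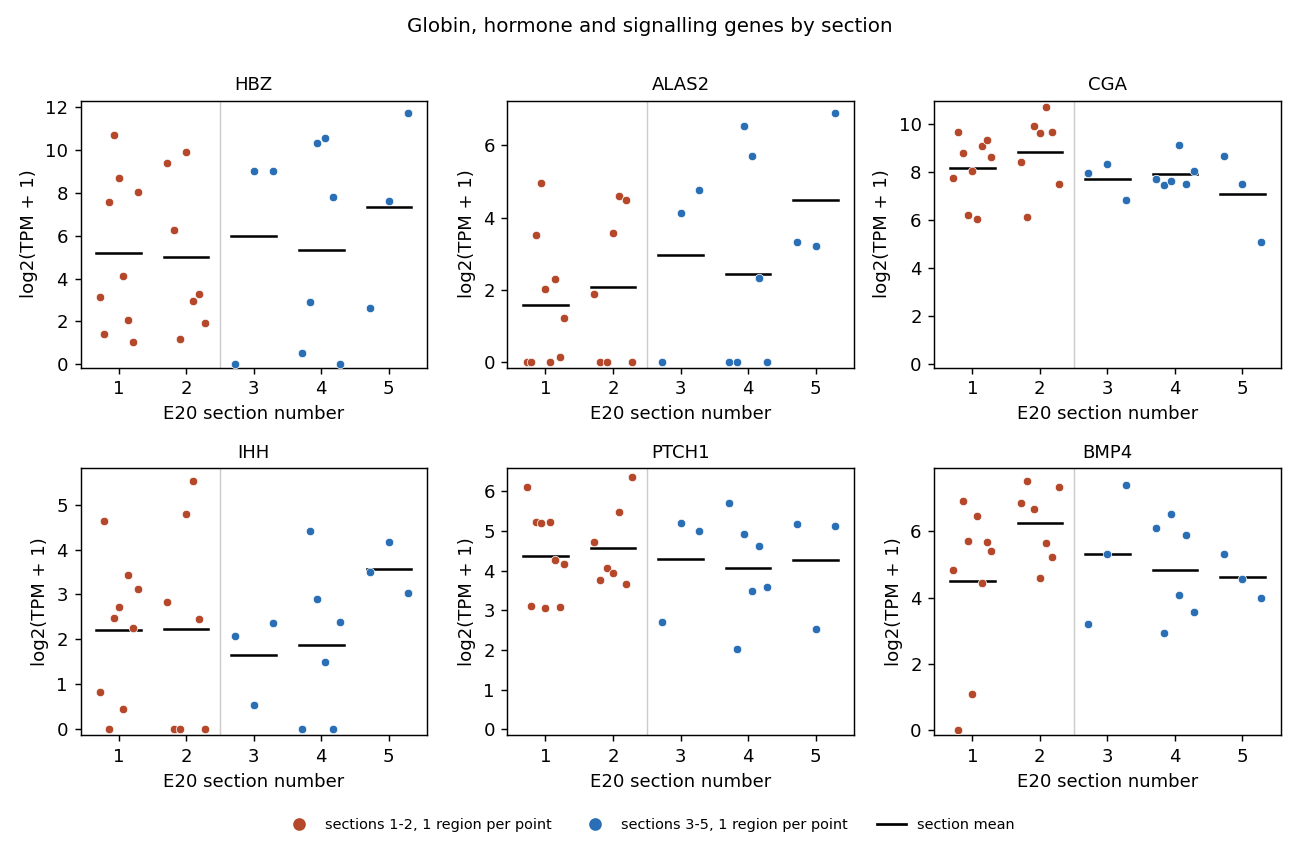
Globin and heme genes (HBZ, ALAS2), the hormone subunit gene CGA and the signalling genes IHH, PTCH1 and BMP4, in log2(TPM + 1) against E20 section number; points are regions, red for sections 1-2 and blue for sections 3-5, and bars are section means. HBZ covers 0 to 3380 TPM, and in CGA both red section means lie above the 3 blue ones with overlapping regions.

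CGA, the alpha subunit shared by chorionic gonadotropin and pituitary hormones, was one of the genes with higher values in sections 1-2. It had a lowest, median and highest value of 64.9, 414 and 1658 TPM in sections 1-2 and 32.7, 201 and 552 TPM in sections 3-5, a difference of 0.78 (95% interval -0.02 to 1.58, limma adjusted p = 0.398). It lies outside the naming rule and was chosen after its values were seen. GATA3, a transcription factor of trophoblast and amnion among other tissues, had medians of 10.3 and 4.73 TPM in sections 1-2 and sections 3-5 (difference 0.48, -0.45 to 1.41). Both genes were highest in section 2 sector 5, at 1658 and 59.8 TPM, as was IHH at 45.4 TPM. That region was low in AFP (89.9 TPM) and in COL3A1 (72.6 TPM). The 4 trophoblast genes tested had differences from -0.74 to 0.78, and 0 passed an unadjusted p of 0.05. PAGE4, of the same list, had medians of 135 TPM in sections 1-2 and 179 TPM in sections 3-5. The trophoblast markers CYP19A1 and HSD3B1 were listed at 0 in 16 and 11 of 16 regions of sections 1-2, and each in 11 of 12 of sections 3-5.

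The 16 tested genes of G2 and M phase had the highest median of the 38 lists, 0.45, with 5 higher and 0 lower at an unadjusted p of 0.05 (background 1.39% higher) and 0 past the adjusted threshold. The median was 0.84 without section 1 and 0.16 without section 2. With section means as units 2 of these genes were higher, as were 80 of all 10962 genes. After quantile normalization 7 were higher, with detected genes as a covariate 4, with the marker covariate 4 and with regions independent 3. In those fits 637, 373, 133 and 90 of all genes were higher. TPX2, a spindle assembly factor, had a lowest, median and highest value of 23.2, 45.8 and 90.2 TPM in sections 1-2 and 8.45, 28.1 and 44.0 TPM in sections 3-5 (difference 0.88, 0.38 to 1.38, limma adjusted p = 0.144). TOP2A, the topoisomerase that untangles DNA before division, had medians of 111 and 85.9 TPM (difference 0.63, 0.17 to 1.09, adjusted p = 0.233). PLK1, a mitotic kinase, went the other way at -0.63 (-1.52 to 0.26). TPX2, TOP2A and PLK1 were chosen after their values were seen. The 18 S phase genes had a median of 0.07, which took the other sign in 8 of 18 alternatives.

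The 50 of 68 ribosomal protein genes tested had a median of 0.13 (0.135), with 14 higher and 0 lower at an unadjusted p of 0.05 (background 1.39% higher) and 0 past the adjusted threshold. The counts were 1 higher and 1 lower with detected genes as a covariate, and 5 higher and 0 lower with section means as units. Over all 10962 genes they were 373 higher and 386 lower in the first fit, and 80 higher and 1187 lower in the second. For the ribosomal genes, 10 were higher after quantile normalization, 10 with the marker covariate and 12 with regions independent, and 0 were lower. In those fits 637, 133 and 90 of all genes were higher. Cholesterol synthesis genes had a median of -0.54, all 17 tested being below 0, with 11 lower and 0 higher at an unadjusted p of 0.05 (background 11.6% lower). The lower count was 3 with detected genes as a covariate and 5 with the marker covariate, where 386 and 1261 of all 10962 genes were lower. The median was -0.87 without section 1 and -0.36 without section 2. Nuclear genes of oxidative phosphorylation had a median of 0.02 over 30 genes, which took the other sign in 4 of 18 alternatives, quantile normalization among them. The mitochondrially encoded genes had a median of -0.06 over 13, which was above 0 after quantile normalization.

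Values in the rest of the series are set beside both groups of sections, without a test. AFP was at most 2.70 TPM in sections 6-7, 49.3 TPM in E18 embryo 1 and 8.08 TPM in E18 embryo 2, so that the lowest region of sections 1-2 (15.2 TPM) still exceeded every region of sections 6-7. SERPINA1 was listed at 0 in all regions of sections 6-7. APOA1, in contrast, reached 152 TPM in sections 6-7 and 4606 and 250 TPM in the E18 embryos. LUM was at most 182 TPM in sections 6-7 and 439 and 376 TPM in the E18 embryos, while its medians were 1207 TPM in sections 1-2 and 1349 TPM in sections 3-5. HBZ was listed at 0 in all 15 regions of E18 embryo 1 and reached 9.93 TPM in E18 embryo 2.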

How the data were processed

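The deposited table holds TPM as computed by the authors, for 17023 genes in 86 regions. fastp, HISAT2 and StringTie are named per the submitters' processing notes, without versions, and the genome build is not given in the sources used here. Column sums of the 28 regions were 678359 to 777988 TPM, so some genes normalized over are not in the table. Depth is unknown, and no counting interval is given.

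Groups came from section numbers in the titles. Genes that reached 1 TPM in 6 or more of the 28 regions were tested as log2(TPM + 1), which understates changes of low genes, with limma 3.58.1 (eBayes with a trend, duplicateCorrelation by section, statmod 1.5.0) in R 4.3.3. Two-sided p-values were Benjamini-Hochberg adjusted at 0.05. The fit was also run on simulated normal values that had no correlation within sections and no excess of values at 0. That run therefore says nothing of how the fit handles either. Captured regions are not independent animals, so p-values over regions are too small for any statement about embryos. Permutation tests and correlations used Python 3.11.15, numpy 2.4.6, pandas 2.3.3 and scipy 1.17.1, and pictures matplotlib 3.10.9.

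Members, the 38 gene lists and the rules were chosen with earlier results of these data known. Named genes were called genes with a mean TPM of at least 5 and section means that did not overlap (up to 12 per direction), called list members, and a panel of 26 genes. Lists were described by counts and medians, with no test. Members that passed the filter through a single group were kept in them, PROC among them, which bears on both measures. The alternatives were another pseudocount, other filters, quantile normalization, rescaling without mitochondrial genes, other treatments of regions and sections, covariates, a sector block and leaving out sections. Leaving out section 2 sector 3, and leaving out section 1 or 2 with regions independent, were chosen after seeing the data. Some genes are not reported here.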

Additional observations from a re-analysis of the deposited data

How the results depend on the processing

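The count of called genes (6, all lower in sections 1-2) was 0 with no filter (1514 genes at an unadjusted p of 0.05), with quantile normalization, with regions taken as independent, with section means as units and with detected genes per region as a covariate. It was 2 with the marker covariate and 1 without section 2 sector 3. Leaving out 1 section at a time gave 0 to 2033 calls, 0 to 405 higher and 0 to 1628 lower in sections 1-2. It was 0 without section 3, 295 without section 2 (34 higher, 261 lower) and 2033 without section 1. With regions independent as well, leaving out section 1 gave 58 (2 higher, 56 lower) and leaving out section 2 gave 0. The fits without section 1 and without section 2, under the correlation model, had more negative correlations within sections than the main fit. The cause of these shifts was not tested. The sector number as a replicate block gave 6 calls, all lower, of which 3 were among the 6. Sector numbers mark a place within a section and are not known to pair regions. The pseudocount of 0.1 gave 5 calls, the stricter filter 4 and the rescaling without mitochondrial genes 6.

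The difference in mitochondrially encoded share lay between -0.32 and 0.67 percentage points when sections were left out in turn, the second without section 4 (p = 0.670, permutation test) with a sign opposite to that over all sections (-0.07). The difference in genes detected lay between -1303 and -765 when sections were left out in turn, and was -867 without section 2 sector 3. Medians of the coagulation, carrier, apolipoprotein, liver-type enzyme, cholesterol, blood, macrophage, ribosomal and G2 and M phase lists kept their sign in 18 of 18 alternatives, and the hedgehog median took the other sign in 11. Other lists kept their sign too, among them the uptake (-0.30) and epithelial (-0.31) lists. The median over all genes was itself -0.22 in the main fit, so a kept negative sign does not set a list apart. Unknown depth, and genes listed at 0 in many regions, limit what can be said of low genes.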
